A study of Mus musculus with 9 samples.

Results

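The genes described here are 10 antioxidant and detoxification genes that textbooks list as targets of the transcription factor NRF2, namely Nqo1, Hmox1, Slc7a11, Gclc, Gclm, Gsr, Txnrd1, Srxn1, Prdx1 and Osgin1. They were picked by name, with earlier results of these data known, and the rule uses no measured value. All 10 were found among the 29069 genes of the expression table, and all 10 passed the filter on low values that left 18156 genes for testing. Total RNA was sequenced from mouse embryonic stem cells (mESC) of the established line mES-D3, which had been adapted to growth without feeder cells and was used at passages p5-p8. The cells spent 24 h in 1 of 3 media, with 3 replicates per medium and a dish of cells for each replicate. The ground state medium, GS, was the serum-free NDiff N2B27 with 1 µM PD0325901 (a MEK inhibitor), 3 µM CHIR99021 (a GSK-3 inhibitor) and 20 ng/mL of the cytokine LIF. The spontaneous differentiation medium, DM, was DMEM with 10% FBS, 0.1 mmol/L of the thiol 2-mercaptoethanol, glutamine at 4 mmol/L and glucose at 1 g/L. The mesendodermal medium, NO, was DM with 250 µM of DETA/NO, a compound that slowly releases nitric oxide. NO and DM thus differ by the donor. GS differs from both in basal medium, serum, inhibitors and LIF, whose parts in a difference from GS cannot be told apart. Whether NDiff N2B27 holds a thiol was not stated in the sources used here. No sample received DETA/NO that had already released its nitric oxide, so in NO the gas and the carrier molecule cannot be told apart either.

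NRF2, encoded by Nfe2l2, is held at a low level in resting cells by KEAP1, which hands it to a ubiquitin ligase for degradation. Electrophiles, oxidants and nitric oxide can modify cysteines of KEAP1, and NRF2 that is no longer degraded enters the nucleus, pairs with a small MAF protein and binds antioxidant response elements near its target genes. The targets fall into enzymes that detoxify quinones and break down haem, enzymes that make and recycle glutathione, and enzymes of the thioredoxin and peroxiredoxin system.

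The core letters of an antioxidant response element, TGACNNNGC, were searched on both strands of the RefSeq start regions of GRCm38.p6, each 300 bases long, from 250 before to 50 after the start of a transcript. Start regions of 7 members were used, 9 regions in all because Txnrd1 has 3, and those of Gclc, Hmox1 and Gsr were not analysed here. The core occurred in 4 of the 9 regions and in 4 of the 7 genes, against 12.4% of all 32851 regions and 14.0% of all 27025 genes. The matches are shown so that the letters of the core can be read in the start regions of these genes. Each sequence runs 5′ to 3′ on the + strand, which is the strand of all 4 genes, and capitals mark the core, which lies on the opposite strand and so is printed as its reverse complement. The windows are, for Gclm, chr3:122245398-122245456, for Prdx1, chr4:116685441-116685499, for the second of the 3 starts of Txnrd1, chr10:82859089-82859147, and for Srxn1, chr2:152105542-152105570.
Gclm: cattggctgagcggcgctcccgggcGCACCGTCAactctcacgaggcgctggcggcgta
Prdx1: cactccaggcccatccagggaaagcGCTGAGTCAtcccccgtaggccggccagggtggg
Txnrd1: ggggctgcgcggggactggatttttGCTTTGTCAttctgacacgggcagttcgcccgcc
Srxn1: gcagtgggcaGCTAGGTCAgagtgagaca
Counted from the start site, the leftmost base of the core stood at -134 in Gclm, -133 in Prdx1, -92 in Txnrd1 and 28 in Srxn1. The core of Prdx1 also contains TGACTCA, the letters bound by AP-1 factors. Those letters occurred in 3 of the 9 regions, those of Srxn1, Prdx1 and Osgin1, and in 5.2% of all regions. The windows of Nqo1, Slc7a11 and Osgin1 did not hold the core, which says only that these letters are not within that stretch.

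The values are normalised read counts that the authors rounded to whole numbers. The 9 libraries had totals of 18290445 to 20508679 normalised counts, and the number of assigned reads estimated from the spacing of low values was about 14300000 to 27100000. Pou5f1 and the 5 other markers of pluripotent cells were detected in every medium, with a summed level of 72612 to 74414 in GS, 70418 to 76429 in DM and 42592 to 69392 in NO. The 6 markers of feeder fibroblasts summed to 99 to 122 in GS, 231 to 249 in DM and 211 to 296 in NO. Of these, Lum and Dcn stood between 0 and 6 in all libraries. Thy1 was called higher in DM (3.24-fold) and NO (2.78-fold) than in GS, and Col1a1 was called higher in NO than in GS (2.8-fold) and DM (2.94-fold). Col1a2 and Col3a1 were called in no comparison. Their log2 differences were -0.82 and 0.25 in DM against GS, -0.32 and -1 in NO against GS, and 0.49 and -1.25 in NO against DM. NO replicate 2 stood apart, with the lowest pluripotency sum and the highest sums of 6 primitive endoderm genes and 6 trophoblast genes. Its primitive endoderm sum was 539, against 200 and 287 in the other NO libraries, 108 to 165 in GS and 96 to 167 in DM. Its trophoblast sum was 1153, against 271 and 425 in the other NO libraries, 363 to 444 in GS and 75 to 95 in DM. The trophoblast genes did not move together. In NO against GS, Krt7 and Hand1 were called higher (log2 4.51 and 2.95) and Cdx2 lower (-3.03). NO replicate 2 was also the highest library for Hmox1, Txnrd1, Gclc, Srxn1 and Osgin1 and the lowest for Prdx1. Results that no longer pass without it are therefore given both ways. The part of these cell-type markers in the differences was not tested, and in bulk RNA fewer cells that express a gene and less RNA per cell cannot be told apart.

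**Figure D1:**
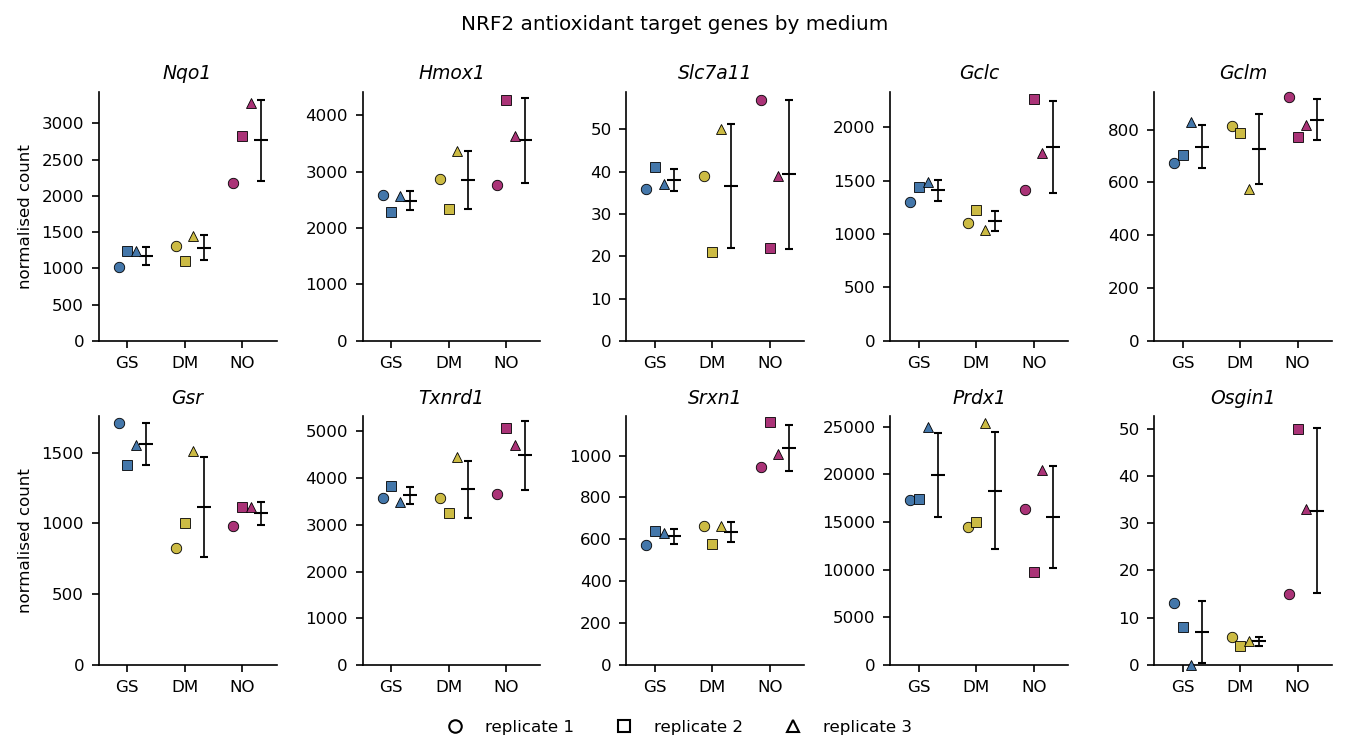
Normalised read count (vertical axis, linear, from 0) of the 10 NRF2 target genes in each of the 9 libraries, with a symbol for each replicate and, beside them, the mean ± SD of each medium. All 3 NO points of Nqo1, Srxn1 and Osgin1 lie above every GS and DM point, whereas the 3 media overlap for Gclm, Txnrd1, Slc7a11 and Prdx1.

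Of the 10 genes, Nqo1 rose in NO by more than 2-fold against both DM and GS, and Srxn1 rose by less than 2-fold against both. Gclc rose against DM by less than 2-fold, and Osgin1 was called higher against GS, although neither passed when certain libraries were left out. For Hmox1, Txnrd1, Gclm, Slc7a11, Gsr and Prdx1 no comparison passed the test in the reported fit of all 9 libraries. None of the 10 passed in DM against GS in that fit. Hmox1 and Gsr passed the adjusted p under some other settings or with a library left out, as given below. Log2 fold changes are of log2(normalised count + 1) and are given ± SE (n = 3 per medium), p-values are from limma with Benjamini-Hochberg adjustment over 18156 genes, and a gene was called where the adjusted p was under 0.05 and the change at least 2-fold.

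Nqo1 (ENSMUSG00000003849, chr8:107388225-107403206, - strand) encodes a quinone reductase that moves both electrons at once and so avoids the reactive semiquinone. Its normalised counts were 1023, 1242 and 1245 in GS replicates 1, 2 and 3, 1307, 1105 and 1447 in DM, and 2179, 2832 and 3280 in NO. The lowest NO library lay above the highest of the 6 others, while GS and DM overlapped. The log2 fold change was 1.09 ± 0.17 in NO against DM (2.13-fold, adjusted p = 0.00382) and 1.23 ± 0.17 against GS (2.34-fold, adjusted p = 0.00111). DM differed from GS by 0.13 on the log2 scale, with a 95% interval from -0.24 to 0.51 (adjusted p = 0.727). The adjusted p of Nqo1 stayed under 0.05 in NO against DM without any given library, but the change fell just short of 2-fold without DM replicate 2 (0.99 on the log2 scale) and without NO replicate 3 (0.96). Without NO replicate 2 it was 1.06 (adjusted p = 0.00693).

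Hmox1 (ENSMUSG00000005413, chr8:75093621-75100589, + strand) encodes haem oxygenase 1, which splits haem into biliverdin, iron and carbon monoxide. GS libraries held 2591, 2290 and 2565 normalised counts of Hmox1, DM libraries 2863, 2338 and 3369, and NO libraries 2765, 4271 and 3627. All NO values lay above all GS values, but NO replicate 1 lay below 2 of the 3 DM values. The log2 difference was 0.50 ± 0.18 in NO against GS (adjusted p = 0.0714) and 0.31 ± 0.18 in NO against DM, with a 95% interval from -0.08 to 0.70 (adjusted p = 0.266). Without NO replicate 2 these differences were 0.35 and 0.16. The adjusted p of the NO against GS difference of Hmox1 was under 0.05 in 3 of 18 alternative settings, without NO replicate 1 (log2 0.67, adjusted p = 0.0142), under quantile normalisation (0.0313) and with equal totals (0.027).

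Glutathione synthesis starts with cystine, which the transporter subunit encoded by Slc7a11 (ENSMUSG00000027737, chr3:49892526-50443614, - strand) brings in against glutamate. Slc7a11 had few reads, at 36, 41 and 37 normalised counts in the GS libraries, 39, 21 and 50 in DM and 57, 22 and 39 in NO. The 3 media overlapped, and the 95% interval of the log2 difference of NO against DM ran from -0.78 to 0.95. Changes within that range, among them a rise of nearly 2-fold, were not excluded at this depth and spread.

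Gclc (ENSMUSG00000032350, chr9:77754535-77794485, + strand) encodes the catalytic subunit of glutamate-cysteine ligase, the rate-limiting enzyme of glutathione synthesis. Its normalised counts were 1297, 1438 and 1486 in GS, 1102, 1227 and 1040 in DM, and 1412, 2266 and 1757 in NO. DM was the lowest medium, with no overlap with either GS or NO, and NO replicate 1 lay within the GS range. Gclc rose in NO against DM by 0.67 ± 0.17 on the log2 scale (1.59-fold, adjusted p = 0.0245). It differed by 0.34 ± 0.17 in NO against GS (adjusted p = 0.174) and by -0.33 ± 0.17 in DM against GS (adjusted p = 0.312). The adjusted p of the NO against DM difference rose above 0.05 without DM replicate 1 (0.0738), DM replicate 2 (0.0513), DM replicate 3 (0.0692), NO replicate 2 (0.0623) or NO replicate 3 (0.0673). The log2 difference without NO replicate 2 was 0.49, and in all the adjusted p was lost in 7 of 18 alternative settings.

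Gclm (ENSMUSG00000028124, chr3:122245557-122270732, + strand) encodes the modifier subunit, which lowers the amount of substrate the catalytic subunit needs. It stood at 674, 704 and 830 in GS, 814, 789 and 574 in DM and 925, 773 and 816 in NO, and the media overlapped. The log2 difference of NO against DM was 0.22 ± 0.16 with a 95% interval from -0.14 to 0.58 (adjusted p = 0.39). The exons of Gclm overlap those of Gm17494 on the opposite strand and Gm6061 on the same strand, and 4.6% of its 50-base stretches occur in transcripts of other genes, so its counts are less certain.

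Gsr (ENSMUSG00000031584, chr8:33652523-33698163, + strand) encodes glutathione reductase, which returns oxidised glutathione to its reduced form. Its normalised counts were 1712, 1416 and 1553 in GS, 829, 1003 and 1513 in DM and 979, 1118 and 1118 in NO. All NO libraries lay below all GS libraries, while DM replicate 3 alone among the DM libraries fell within the GS range. The log2 difference was -0.54 ± 0.20 in NO against GS (adjusted p = 0.0722) and -0.53 ± 0.20 in DM against GS (adjusted p = 0.151), neither of which passed. Without DM replicate 3 both did, at -0.54 (adjusted p = 0.0174) and -0.77 (adjusted p = 0.0171), and with only the 6 samples compared NO against GS did (adjusted p = 0.0287). NO against DM gave -0.01, with a 95% interval from -0.44 to 0.41.

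Txnrd1 (ENSMUSG00000020250, chr10:82833951-82897712, + strand) encodes the cytosolic thioredoxin reductase, a selenoenzyme that keeps thioredoxin reduced. Its values were 3564, 3826 and 3493 in GS, 3568, 3253 and 4447 in DM and 3661, 5082 and 4718 in NO. NO replicates 2 and 3 were the highest of the 9 libraries, and NO replicate 1 lay inside the range of both other media. The log2 difference was 0.26 ± 0.16 in NO against DM (adjusted p = 0.302) and 0.29 ± 0.16 in NO against GS (adjusted p = 0.215).

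Srxn1 (ENSMUSG00000032802, chr2:152105516-152111376, + strand) encodes sulfiredoxin, which restores peroxiredoxins whose cysteine has been over-oxidised. GS libraries held 573, 641 and 628 normalised counts, DM libraries 665, 578 and 663, and NO libraries 948, 1160 and 1007. The NO range was clear of the other media, which overlapped each other. Srxn1 rose by 0.71 ± 0.14 on the log2 scale in NO against DM (1.63-fold, adjusted p = 0.00862) and by 0.75 ± 0.14 against GS (1.69-fold, adjusted p = 0.00339). It stayed under an adjusted p of 0.05 in both comparisons in all 18 alternative settings, with a highest value of 0.0401. Without NO replicate 2 the log2 rise over DM was 0.62 (adjusted p = 0.0185).

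Prdx1 (ENSMUSG00000028691, chr4:116685544-116700822, + strand), a peroxiredoxin that removes hydrogen peroxide and a substrate of sulfiredoxin, was the most abundant of the 10 genes. Its counts were 17264, 17421 and 24960 in GS, 14463, 15034 and 25331 in DM and 16305, 9772 and 20424 in NO. Replicate 3 was the highest in each medium and NO replicate 2 the lowest of all libraries. The log2 difference of NO against DM was -0.25 ± 0.29, with a 95% interval from -0.88 to 0.38 (adjusted p = 0.59), and it became 0.05 without NO replicate 2. Stretches shared with transcripts of other genes made up 8.8% of its 50-base stretches.

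Osgin1 (ENSMUSG00000074063, chr8:119434124-119446256, + strand), an oxidative stress-induced growth inhibitor, had the fewest reads of the 10. Its normalised counts were 13, 8 and 0 in GS, 6, 4 and 5 in DM and 15, 50 and 33 in NO. Every NO value was above every other value, but NO replicate 1 exceeded GS replicate 1 by only 2 normalised counts, with 1 read worth 0.7 to 1.32 normalised counts. The log2 fold change was 2.59 ± 0.84 in NO against GS (6.04-fold, adjusted p = 0.0497) and 2.35 ± 0.84 in NO against DM (5.09-fold, adjusted p = 0.082). The call against GS is at the edge of the threshold and held in 4 of 17 alternative settings. It was 1.43 (adjusted p = 0.121) without GS replicate 3, the library at 0, and 2.22 (adjusted p = 0.146) without NO replicate 2. The adjusted p of the NO against DM difference was 0.0189 without GS replicate 3, 0.0454 without NO replicate 1 and 0.239 without NO replicate 2.

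**Figure D2:**
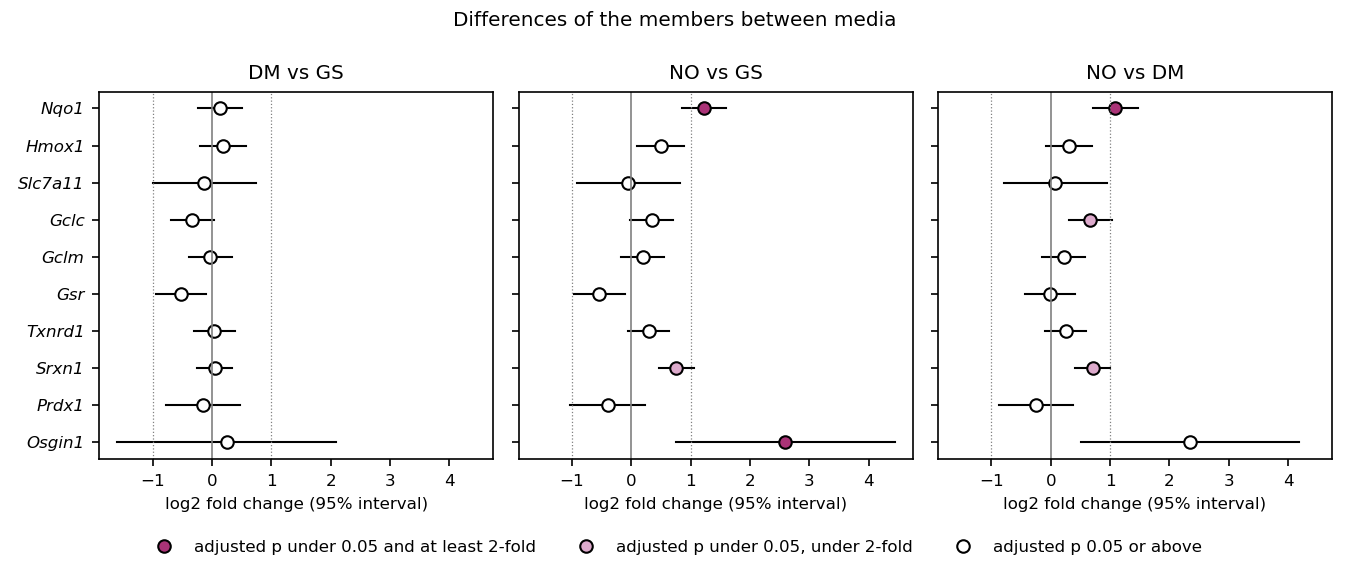
Log2 fold change of log2(normalised count + 1) for the 10 genes in DM against GS, NO against GS and NO against DM, with bars for the 95% interval of the limma fit on all 9 libraries, a solid line at 0 and dotted lines at a 2-fold change. Dark points passed both thresholds, light points the adjusted p alone, and open points neither. In both NO comparisons the intervals of Nqo1, Srxn1 and Osgin1 lie to the right of 0.

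Counted over the 10 genes, 2 were called higher and 0 lower in NO against GS, where 11.7% of all genes tested were called and 10.1% were called higher. By the adjusted p alone 3 passed (Nqo1, Srxn1 and Osgin1), all higher, against 20.0% of all genes in either direction and 13.4% in the higher direction. Groups did not overlap for 4 genes that were higher in NO, against 20.9% of all genes, and for 1 that was lower (Gsr), against 18.3%. In NO against DM, 1 gene (Nqo1) was called, higher, against 8.55% of all genes called and 6.78% called higher. That background of 1552 genes moved with the libraries, to 806 without NO replicate 2, 2512 without NO replicate 1, 982 without NO replicate 3, 936 without DM replicate 1, 920 without DM replicate 2 and 1028 without DM replicate 3. There 3 passed the adjusted p alone (Nqo1, Gclc and Srxn1), all higher, against 14.2% of all genes and 9.01% in the higher direction, and 4 were higher with no overlap (Nqo1, Gclc, Srxn1 and Osgin1), against 18.1%. In DM against GS limma called 0 of the 10, and 0 passed the adjusted p alone, against 4.20% and 6.69% of all genes, with 1 of the 10 (Gsr) at an unadjusted p under 0.05 and 1 (Gclc) lower in DM with no overlap, against 13.5%. The median log2 fold change of the 10 genes was 0.28 in NO against DM, 0.32 in NO against GS and 0.00 in DM against GS, beside 0.00, -0.02 and 0.00 over all genes tested. These comparisons share samples, since NO enters a pair of them and so does each other medium. The medians describe 10 genes of unlike abundance and were not tested.

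Divided by the summed length of its exons, the level of Prdx1 led in every medium, at 6533.6 ± 1445.5 normalised counts per kb in GS and 5093.8 ± 1765.2 in NO (SD, n = 3). Hmox1 came next, at 1417.5 ± 95.3 in GS and 2029.9 ± 431.5 in NO. Nqo1 followed, at 753.4 ± 82.0 in GS and 1779.6 ± 356.5 in NO, so that its level in NO came within the spread of that of Hmox1, from which it stood apart in GS. Txnrd1 (511.9 ± 24.8) and Gsr (566.6 ± 53.8) were neighbours within their spread in GS, and Gclc (481.1 ± 114.1), Gsr (389.1 ± 29.1) and Srxn1 (368.2 ± 38.8) were so in NO. Gclm stood at 117.0 ± 13.2 in GS and 133.2 ± 12.5 in NO. The lowest were Slc7a11 and Osgin1, at 2.7 ± 0.2 and 2.6 ± 2.5 in GS, and in NO Osgin1 was the higher at 12.2 ± 6.5 against 2.8 ± 1.3.

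Of 13 regulators of the pathway, Bach2 and Mafk were the ones called in any comparison. Nfe2l2, which encodes NRF2, stood at 2159, 2046 and 2075 normalised counts in the GS libraries, 1493, 1719 and 1774 in DM and 1869, 2045 and 2227 in NO. Its NO values lay above its DM values without overlap, and none of its differences passed (log2 0.30, adjusted p = 0.127 in NO against DM). NRF2 is set mainly by protein stability, so its transcript is not a measure of its activity.

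Keap1 stood at 672, 841 and 594 in GS, 415, 437 and 493 in DM and 383, 469 and 536 in NO, with GS above both other media. It fell in NO against GS by 0.60 on the log2 scale (adjusted p = 0.0336), which no longer passed without GS replicate 1 (adjusted p = 0.0774), GS replicate 2 (0.141), DM replicate 2 (0.0519), NO replicate 1 (0.0752) or NO replicate 2 (0.0557). DM against GS gave -0.64 for Keap1 (adjusted p = 0.0542), which passed the adjusted p without NO replicate 1 (0.0346) or NO replicate 2 (0.036). NO against DM gave 0.04 (adjusted p = 0.913). By the adjusted p alone, NO against GS also had Nfe2l1 lower (-0.53, adjusted p = 0.0153) and Sqstm1 higher (0.62, adjusted p = 0.0191), both chosen after their values were seen. Neither passed without GS replicate 1 (0.0721 and 0.0581), GS replicate 2 (0.0522 and 0.0628) or NO replicate 3 (0.0573 and 0.0702), nor did Sqstm1 without GS replicate 3 (0.0637) or NO replicate 2 (0.0526). The exons of Keap1 overlap Gm16754 and those of Sqstm1 overlap Mrnip, in both cases on the opposite strand.

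Bach1, a haem-sensing repressor that competes for the same elements and is best known for silencing Hmox1, differed by 0.37 on the log2 scale in NO against DM (adjusted p = 0.119). Its relative Bach2, known from lymphocytes, stood at 194, 165 and 155 normalised counts in the GS libraries, 48, 58 and 48 in DM and 107, 211 and 150 in NO. DM lay below both other media without overlap. Bach2 fell in DM against GS by 1.72 on the log2 scale (SE 0.25, adjusted p = 0.00189) and rose in NO against DM by 1.54 ± 0.25 (adjusted p = 0.00453). Its exons overlap the antisense gene Bach2os.

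Mafk encodes a small MAF protein, a partner of both NRF2 and the BACH factors. It held 36, 65 and 44 normalised counts in the GS libraries, 50, 57 and 56 in DM and 104, 230 and 106 in NO, with NO above the rest throughout. Mafk rose by 1.31 ± 0.33 against DM (adjusted p = 0.0246) and by 1.52 ± 0.33 against GS (adjusted p = 0.00882). The call against DM was lost without NO replicate 2 (0.94, adjusted p = 0.0685), DM replicate 1 (adjusted p = 0.0778), DM replicate 2 (0.0651) or DM replicate 3 (0.0576). Mafk overlaps Tmem184a on the opposite strand. Of the 13 regulators, 2 were called higher and 0 lower in NO against DM (8.55% of all genes called, 6.78% higher), 1 higher and 0 lower in NO against GS (11.7% called, 10.1% higher), and 0 higher and 1 lower in DM against GS (4.20% called), with median log2 changes of 0.11, -0.18 and -0.28.

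**Figure D3:**
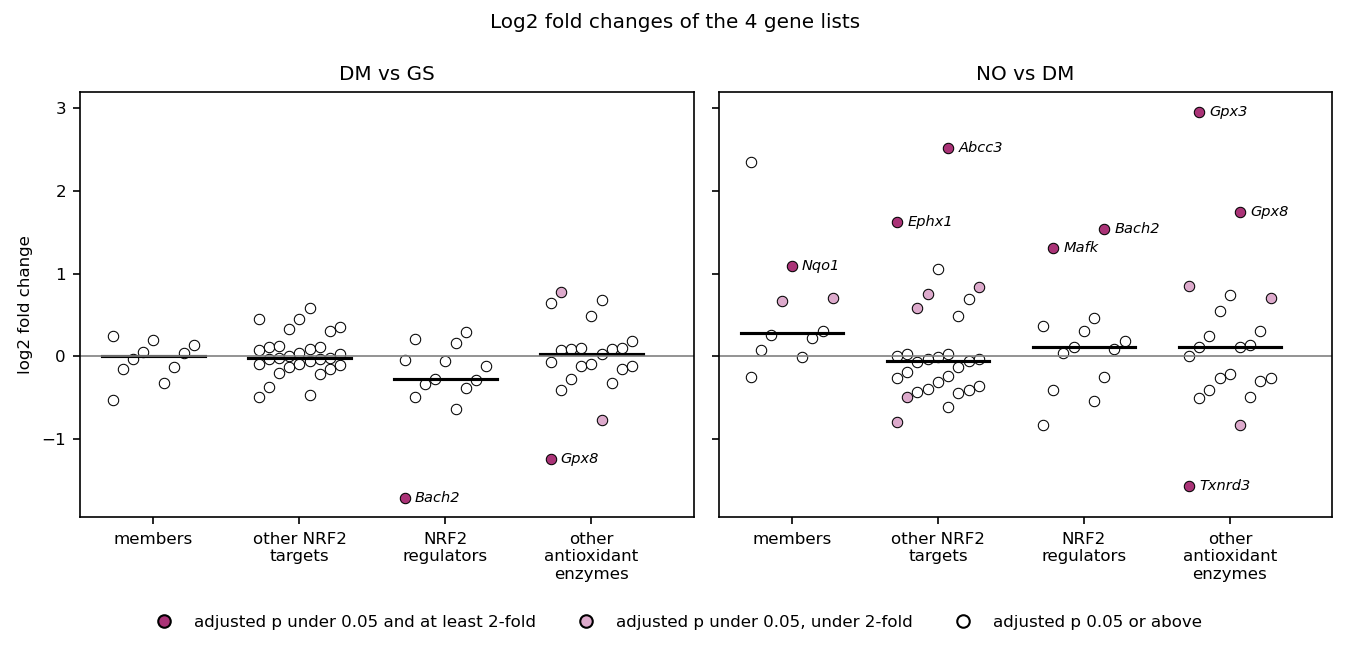
Log2 fold change of each tested gene of 4 lists (the 10 NRF2 targets, 13 regulators, 29 other listed targets and 21 other antioxidant enzymes) in DM against GS and in NO against DM, with each gene a point and the median of the list a line. Colours mark the thresholds passed, as in the legend. The medians lie within 0.28 of 0, and the points above 2 in NO against DM are Osgin1 (not called), Abcc3 and Gpx3.

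Among 31 other genes listed as NRF2 targets, 29 were tested. In NO against DM, 2 were called higher (Abcc3 and Ephx1) and 0 lower, where 6.78% of all genes were called higher. By the adjusted p alone 5 were higher, against 9.01% of all genes, and 2 lower, where 951 of all 18156 genes tested were lower. Ephx1, which encodes microsomal epoxide hydrolase, held 592, 579 and 801 normalised counts in DM and 1370, 2999 and 2002 in NO, a rise of 1.63 ± 0.25 on the log2 scale (3.1-fold, adjusted p = 0.00371). Its exons overlap Gm36961 on the same strand. Abcc3, an exporter of glucuronides and other conjugates, went from 19, 11 and 9 to 40, 116 and 93, a rise of 2.52 ± 0.44 (5.73-fold, adjusted p = 0.00612).

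Both genes had no overlap between NO and DM, and NO replicate 2 was the highest library for each. Aox1, encoding aldehyde oxidase, rose above GS by 1.20 on the log2 scale (adjusted p = 0.00193) and above DM by 0.75 (adjusted p = 0.0269), at 94, 117 and 87 in GS, 124, 130 and 153 in DM and 212, 258 and 217 in NO. The others higher than in DM by the adjusted p alone were Gpx2, a glutathione peroxidase of the gut lining, and Fth1, the ferritin heavy chain that stores iron. Those lower were Tkt, the transketolase of the pentose phosphate pathway, and the exporter Abcc1. Without NO replicate 2 none of these differences from DM passed, with adjusted p-values of 0.0764 for Aox1, 0.0597 for Gpx2, 0.138 for Fth1, 0.0706 for Tkt and 0.0907 for Abcc1. Nor did they without DM replicate 2, with 0.0829, 0.0778, 0.0983, 0.0586 and 0.0856 in the same order. Gpx2, Fth1, Tkt and Abcc1 were chosen after their values were seen.

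The median log2 change of the 29 genes was -0.06 in NO against DM, -0.11 in NO against GS and -0.02 in DM against GS. In NO against GS 3 of them were called higher (Abcc3, Aox1 and Ephx1) and 0 lower, against 10.1% of all genes called higher. In DM against GS limma called 0 of the 29, with 3 at an unadjusted p under 0.05.

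Among 22 other antioxidant enzymes, of which 21 were tested, Gpx3 had the largest rise in both NO comparisons. Gpx3, which encodes a secreted glutathione peroxidase, held 103, 126 and 120 normalised counts in the GS libraries, 183, 164 and 215 in DM and 656, 3329 and 1403 in NO. The NO libraries were far apart, with replicate 2 the highest, and all lay above the rest. The log2 rise was 2.96 ± 0.43 in NO against DM (7.77-fold, adjusted p = 0.00288) and 3.64 against GS (12.4-fold, adjusted p = 0.000603). Without NO replicate 2 the log2 rises of Gpx3 were 2.36 (adjusted p = 0.000815) and 3.04 (adjusted p = 0.000137).

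Gpx8, a peroxidase of the endoplasmic reticulum, stood at 40, 32 and 42 in GS, 12, 25 and 12 in DM and 46, 58 and 59 in NO. It rose in NO against DM by 1.75 ± 0.34 (adjusted p = 0.00862) and fell in DM against GS by 1.24 on the log2 scale (adjusted p = 0.0483), a call that was lost in 11 of 17 alternative settings, including those without GS replicate 1 (adjusted p = 0.137), GS replicate 2 (0.0984), GS replicate 3 (0.175), DM replicate 1 (0.159), DM replicate 3 (0.155) or NO replicate 3 (0.0786). Txnrd3, a thioredoxin reductase best known from testis, fell in NO against DM by 1.57 on the log2 scale (adjusted p = 0.021), from 272, 221 and 315 to 161, 42 and 105. That call was lost without DM replicate 1 (adjusted p = 0.0636) or DM replicate 3 (0.0658). Txnrd1, its cytosolic relative among the 10 genes, differed by 0.26 in the same comparison.

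In NO against DM, the 21 enzymes had 2 called higher and 1 lower, and by the adjusted p alone 4 higher (Gpx3, Gpx4, Gpx8 and Gss) and 2 lower (Prdx2 and Txnrd3), where 8.55% of all genes were called and 14.2% passed the adjusted p alone. Gpx4 reduces lipid peroxides in membranes, Gss is the enzyme that completes glutathione after Gclc and Gclm have acted, and Prdx2 is a cytosolic peroxiredoxin like Prdx1. Their log2 differences were 0.85 for Gpx4 (adjusted p = 0.0217), 0.70 for Gss (adjusted p = 0.0174) and -0.84 for Prdx2 (adjusted p = 0.0269), and without DM replicate 2 the adjusted p-values were 0.0792, 0.0634 and 0.0778. Without NO replicate 2 they were 0.063 for Gpx4, 0.0478 for Gss and 0.0818 for Prdx2, with log2 differences of 0.67, 0.59 and -0.65. Gss stood at 1457, 1452 and 1540 in GS, 878, 810 and 915 in DM and 1082, 1641 and 1573 in NO. For Gss, DM against GS gave -0.77 (adjusted p = 0.0142), which lost the adjusted p in 4 of 18 alternative settings. NO against GS gave -0.07 for Gss (adjusted p = 0.783). Gpx4, Gss and Prdx2 were chosen after their values were seen. On the opposite strand, the exons of Gss overlap Acss2, Gssos1 and Gssos2, and those of Prdx2 overlap Junb and Rnaseh2a. The median over the 21 was 0.11 in NO against DM, -0.01 in NO against GS and 0.02 in DM against GS, with 1 called higher in NO against GS (10.1% of all genes) and 1 lower in DM against GS (4.20% called). By the adjusted p alone, DM against GS had 1 higher (Gpx7) and 2 lower (Gpx8 and Gss), against 6.69% of all genes. Gpx7, also chosen after its values were seen, lost the adjusted p in 8 of 18 alternative settings.

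**Figure D4:**
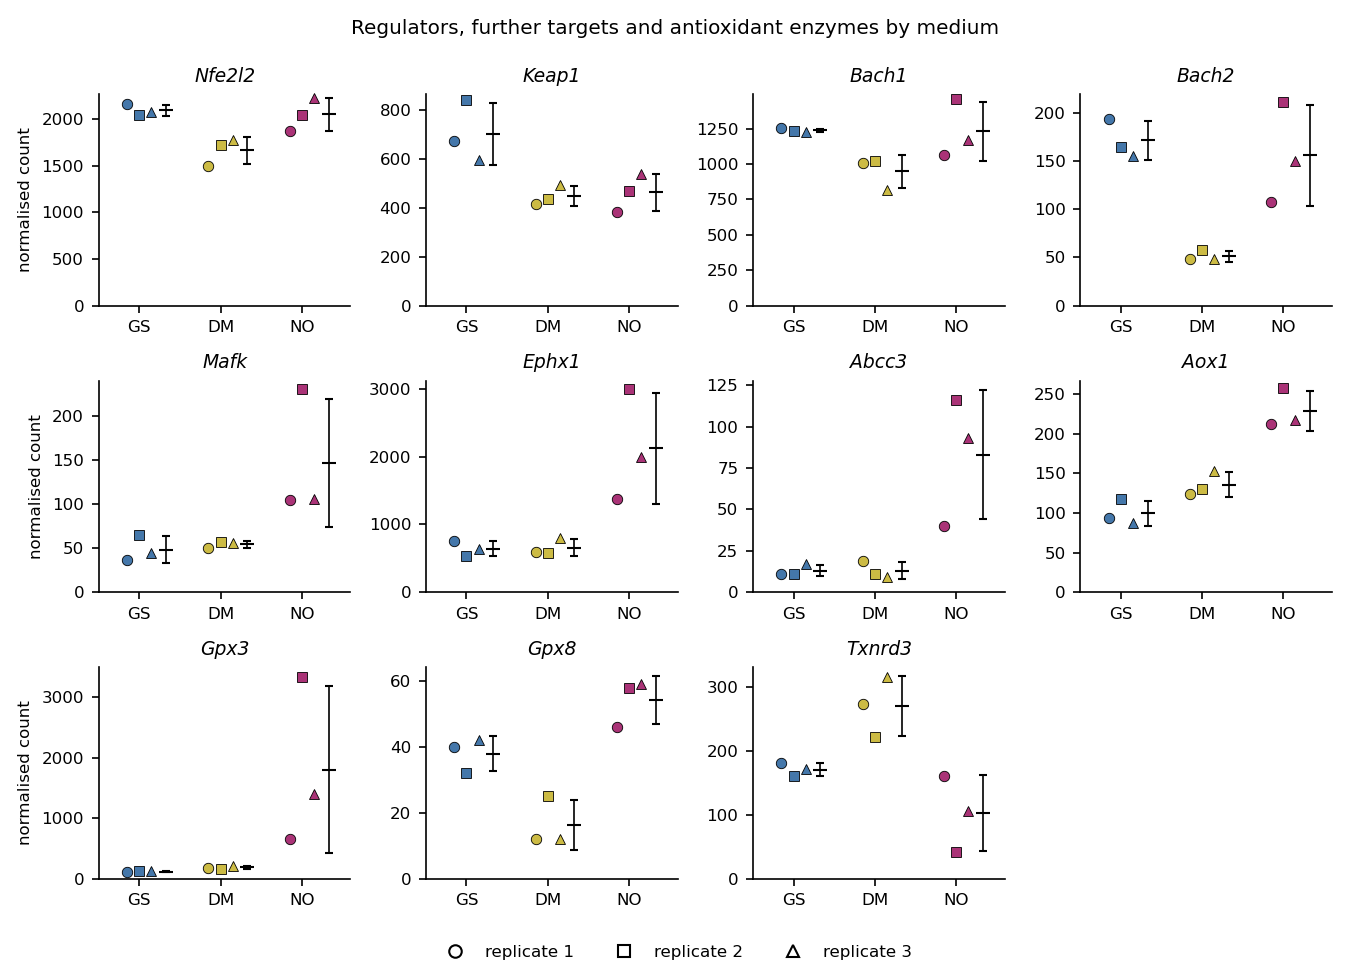
Normalised read count (vertical axis, linear, from 0) in each of the 9 libraries for the regulators and other genes named by rule, with a symbol for each replicate and the mean ± SD of each medium. NO replicate 2 is the highest point of Gpx3 (3329), Ephx1 (2999), Abcc3 (116) and Mafk (230), and Bach2 is lowest in the 3 DM libraries.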

How the data were processed

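Per the labels, ribosomal RNA was removed before sequencing by Ion Torrent Proton, and the authors aligned reads to GRCm38 with STAR (2.4.0a in the submitters' processing notes), counted reads over exons with featureCounts 1.4.5-p1 and normalised with DESeq2. The deposited values are a score, namely these normalised counts rounded to whole numbers, so no count model was fitted. Strand use in counting was not stated. A column of sums was not used.

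Log2(value + 1) of 18156 genes with a mean above 5 was fitted with limma 3.58.1 (R 4.3.3) on all 9 samples, with the medium as group and a mean-variance trend. Tests were two-sided. The procedure was also run on simulated data with changes larger than 2-fold and no library that stood apart. That run cannot show how it performs on smaller changes or with a library such as NO replicate 2. The thresholds were an adjusted p under 0.05 and a 2-fold change. Replicates were taken from the labels. They differed by 24.7 to 138.0 times the sampling variance, so none was counted as a duplicate. A dish per sample is stated and separate cultures are not, so p-values measure the spread between these samples. Replicate numbers of NO and DM paired by their deviations from the medium means (correlations 0.16, 0.17 and 0.30), with no label stating a shared batch, and those with GS did not. The replicate block is an alternative.

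The 10 genes and the lists (13 regulators, 31 other targets, 22 other antioxidant enzymes and 4 lists of 6 cell-type markers) were chosen with earlier results of these data known. Named genes are the 10, Nfe2l2, Keap1, Bach1 and list genes past both thresholds in any comparison. Gene positions and exon lengths are from GENCODE M21, and start regions from RefSeq. Pairs of libraries shared a sequencing run, and which pairs is not given in the sources used here.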

Additional observations from a re-analysis of the deposited data

How the results depend on the processing

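The comparisons were repeated under 11 other settings and with each of the 9 libraries left out in turn. Of 240 repeats of a list's count of called genes, 181 came within 1.5 times the reported count. These include repeats at 0 where the reported count was 0, as for the 10 genes and the other targets in DM against GS. The 181 is therefore not a measure of how stable the calls were. Of 534 repeats of the log2 fold changes of the 10 genes, 495 kept direction and side of the threshold. Most of the 534 were of differences that were not called and had little room to change side, so 495 is not a measure of how stable the calls were. The call of Nqo1 was lost in 0 of 18 repeats in NO against GS and in 2 of 18 in NO against DM. That of Osgin1 in NO against GS was lost in 13 of 17. In each case below the cause was not tested, apart from fold limits and the minimum mean of 50. Stricter or dropped fold limits change counts by construction. The minimum mean of 50 removed Osgin1, Abcc3 and Gpx8 before testing, so their calls could not be kept there. Of the 10 genes, 2 were called in NO against GS and 1 with only the 6 samples compared, the replicate block, no minimum mean, a minimum mean of 50, a minimum log2 change of 2, pseudocount 0.5, quantile normalisation or no mean-variance trend. With the replicate block Osgin1 was the call lost (adjusted p = 0.0521). In NO against DM, 1 was called, 2 with the 6 samples, 3 with no minimum fold, 0 at a log2 change of 2 and 2 with pseudocount 5. Regulators went from 1 to 0 in DM against GS, from 1 to 0 in NO against GS and from 2 to 0 in NO against DM at a log2 change of 2, from 1 to 4 in NO against GS with no minimum fold, and from 2 to 1 in NO against DM with the 6 samples or no trend. Other targets went in NO against GS from 3 to 5 with no minimum fold and 1 at a log2 change of 2, and in NO against DM from 2 to 7 and 1 under these and to 1 at a minimum mean of 50. Other antioxidant enzymes went in DM against GS from 1 to 0 with the 6 samples, the replicate block, no minimum mean, a mean of 50, a log2 change of 2, pseudocount 5 or equal totals, and to 3 with no minimum fold. In NO against GS they went from 1 to 4 with no minimum fold and 2 with equal totals, and in NO against DM from 3 to 6 and to 1 with no minimum fold and a log2 change of 2. The replicate block changed no other call of a list. Without a library, counts ranged from 1 to 2 (NO against GS) and 0 to 2 (NO against DM) for the 10 genes, 1 to 2 for regulators in NO against DM, 2 to 4 for other targets in NO against DM, and 0 to 1 (DM against GS) and 1 to 2 (NO against GS) for antioxidant enzymes.

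Directions turned only for differences that were not called. Slc7a11 turned to 0.06 in NO against GS with equal totals and to -0.26 in NO against DM with quantile normalisation, Osgin1 to -0.08 in DM against GS with pseudocount 5, and Gsr to 0.01 and 0.07 in NO against DM with quantile normalisation and equal totals. Without a library, the log2 changes in DM against GS ran from -0.12 to 0.13 for Gclm, -0.09 to 0.14 for Txnrd1, -0.0 to 0.11 for Srxn1, -0.39 to 0.21 for Slc7a11, -0.92 to 0.99 for Osgin1 and -0.41 to 0.03 for Prdx1. Slc7a11 ran from -0.36 to 0.31 in NO against GS and from -0.26 to 0.44 in NO against DM, where Gsr ran from -0.2 to 0.23 and Prdx1 from -0.48 to 0.05. Under quantile normalisation the median of all genes was -0.11 beside -0.02 in NO against GS, and the share of calls that were higher was 67.5% beside 86%. In NO against DM it was 65.1% beside 79.3%. At about 14300000 to 27100000 reads per library, Slc7a11 and Osgin1 had few reads and the widest intervals of the 10 genes, and the part of depth in that was not tested.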
